A study of Mus musculus with 18 samples.

Results

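Genes of hepatic fatty acid oxidation were followed through the RNA fractions of editing-deficient and editing-competent mouse liver. The 8 genes are *Cpt1a*, *Cpt2*, *Acadm*, *Hadha*, *Ehhadh*, *Acaa1b*, *Fabp1* and *Ppara*, taken by name from GENCODE M21 on GRCm38, and all of them were among the 5274 genes with an own-strand input peak in an exon in at least 1 library. The question asked of each gene was whether its input RNA differed between the genotypes, and whether its exons or introns gave RNA that survived RNase digestion with or without MDA5. None of the 8 encodes an enzyme of ketone body synthesis itself, and those enzymes were read from the wider pathway list.

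The liver burns fatty acids in mitochondria and, for very long and branched chains, in peroxisomes. CPT1A and CPT2 form the carnitine shuttle that brings long-chain acyl groups into the mitochondrion. ACADM and the trifunctional protein subunit HADHA work in the mitochondrial β-oxidation spiral, and EHHADH and ACAA1B carry out later steps of the peroxisomal spiral. FABP1 binds fatty acids in the hepatocyte cytosol, and PPARα, encoded by *Ppara*, is the nuclear receptor that fatty acids activate and that drives many of these genes. The pathway is active in suckling liver because milk is rich in fat, and much of its acetyl-CoA leaves the liver as ketone bodies. ADAR1 edits adenosines of paired RNA to inosine, and MDA5 is the cytosolic sensor that binds long double-stranded RNA and signals through MAVS.

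The RNA came from livers of mice aged 8 to 9 days. The editing-deficient group carried the genotype *Adar*-/-;*Mavs*-/- and the comparison group *Mavs*-/-, so both groups lacked MAVS and neither was wild-type, although the sample titles call the second group so. Each genotype had 3 libraries of undigested input RNA, 3 of RNA digested with RNase alone (RNase-only) and 3 of RNA digested after incubation with recombinant MDA5 that lacks its signalling CARD domains (MDA5-protected), 18 libraries in all. The labels number the replicates without saying that each is a separate animal, so *P*-values measure only the spread between these libraries. *Mavs* held no peak in any library, and *Adar* held an exonic input peak in 2 editing-deficient and 0 *Mavs*-/- libraries. The position of the *Adar* deletion is not given in the sources used here, so these peaks did not check the genotype.

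Sequences are shown where peaks fell on the same bases in library after library, and where a paralogue limits what a peak can be assigned to. The coding stretch of *Ehhadh* in its last exon, chr16:21762922-21762999 on the minus strand of GRCm38, held the summit of the gene's strongest input peak in all 6 libraries, and the capitals mark the 18 bases that span those 6 summits. Exon 2 of *Fabp1*, chr6:71201608-71201780 on the plus strand, was matched within 5 bases at both ends by an input peak in 5 of 6 libraries.
Ehhadh exon 7: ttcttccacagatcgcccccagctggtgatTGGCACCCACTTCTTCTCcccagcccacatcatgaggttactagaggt
Fabp1 exon 2: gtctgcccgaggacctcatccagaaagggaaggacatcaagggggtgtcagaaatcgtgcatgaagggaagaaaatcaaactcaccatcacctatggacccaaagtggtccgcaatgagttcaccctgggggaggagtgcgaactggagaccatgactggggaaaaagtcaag

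*Acaa1b* has a close paralogue, *Acaa1a*, and the coding sequences were identical at 1228 of 1272 aligned bases (96.5%). Of the 1615 windows of 75 bases, the read length, in the *Acaa1b* transcript, 460 (28.5%) were present unchanged in a transcript of another gene, so reads there could not be assigned by sequence. The 90 bases of *Acaa1b* below (chr9:119156595-119156684, minus strand) lay under input peaks in all 6 libraries, and the capitals mark the 2 bases at which *Acaa1a* (chr9:119341825-119341914, plus strand) differs. Values of *Acaa1b* are therefore uncertain as to their source gene. *Acadm* shared 8 of its windows with another gene, and the other 6 transcripts shared none.
Acaa1b: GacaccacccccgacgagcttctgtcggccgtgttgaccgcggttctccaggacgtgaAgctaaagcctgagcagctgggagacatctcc
Acaa1a: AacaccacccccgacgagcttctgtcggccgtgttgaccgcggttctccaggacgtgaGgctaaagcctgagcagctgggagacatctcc

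PPARα binds DNA together with a retinoid X receptor at 2 copies of a hexamer in the same direction. A search of both strands for 2 copies of AGGNCA with 1 base between, from 250 bases before to 50 after the RefSeq start of transcription, found a match for *Fabp1* and for none of the other 7 genes. The match was on the minus strand, 67 to 55 bases before the start, and is given in capitals below within chr6:71199792-71199844 (GRCm38.p6, RefSeq). GENCODE starts the gene within this stretch, at base 71199827. The same search matched 125 of 32851 promoters (0.381%), and, of the 43 promoters found for the pathway list, that of *Fabp1* only. No peak of any library bears on promoter activity, so the match is a description of the letters only.
Fabp1 promoter: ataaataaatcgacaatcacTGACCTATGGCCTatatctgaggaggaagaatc

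The files list peaks with an area, the area under the significance curve that the peak caller computed, and give no reads. Sequencing depth is therefore unknown, and values carry no interval for counting error. Editing-deficient input libraries held 6991 to 8948 peaks and *Mavs*-/- input libraries 4326 to 6625. MDA5-protected libraries held 1636 to 2868 and 1180 to 1829 peaks, and RNase-only libraries 5605 to 6094 and 3150 to 5572. All 7 hepatocyte markers were covered in all 6 input libraries. Their summed covered share was 566 to 586% in editing-deficient and 554 to 568% in *Mavs*-/- libraries, with 2 of the 7 higher and 0 lower. None of the 4 cholangiocyte markers had a peak. The summed covered share of 7 erythroid markers was 264 to 344% in editing-deficient and 381 to 493% in *Mavs*-/- libraries, and 4 of the 7 were lower in every editing-deficient library. For 4 stellate and fibroblast markers the sums were 0 to 9.81% and 28.5 to 56.8%, with *Des* at 0 in every library and 2 of the 4 lower. For 4 endothelial markers they were 33.9 to 43.1% and 0 to 18.4%, with *Pecam1* at 0 and 1 higher, and for 5 macrophage markers 196 to 243% and 204 to 245%, with 1 higher. The part of these markers in the differences below was not tested.

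In the input, the share of exonic bases under own-strand peaks was higher in all 3 editing-deficient libraries than in all 3 *Mavs*-/- libraries for 2 of the 8 genes, *Ehhadh* and *Cpt1a*, and lower for 0 of 8. Over all 5274 genes with such a peak, 870 (16.5%) were higher by the same rule and 159 (3.01%) lower, so the 2 of 8 were close to the background. When the libraries were reduced to the same number of peaks, the background was 384 higher and 241 lower of 3591 genes, and the same count of 2 genes was higher. The median difference was 8.8 percentage points over the 8 genes and 3.42 over all genes. The RNA is from whole liver, in which fewer cells of a type and less RNA per cell cannot be told apart.

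*Ehhadh*, the bifunctional enzyme of the peroxisomal spiral, had the widest gap. Its input peaks covered 72.1%, 85.6% and 79.4% of its 2981 exonic bases in editing-deficient replicates 1, 2 and 3 and 37.5%, 61.4% and 47.1% in the *Mavs*-/- replicates. The groups did not overlap, and the means were 79.0% ± 6.8 and 48.6% ± 12 (SD, n = 3 each, exact permutation test, two-sided, *P* = 0.1, which is the lowest value open to 3 against 3 libraries). Peaks touched 2, 5 and 4 of the 7 exons in the editing-deficient libraries and 2, 2 and 1 in the others. The long last exon carried the main peak in every library, with areas of 5579, 8249 and 7919 in editing-deficient and 2243, 2036 and 3403 in *Mavs*-/- libraries, summits falling on the capital bases shown above. All 3 editing-deficient areas were above all 3 of the others. In the 3′ untranslated region the covered share was 69.8%, 75% and 69.9% against 0%, 30.9% and 19.1%, again without overlap.

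*Cpt1a*, the rate-limiting step of mitochondrial import, was covered over 50.9%, 54.3% and 53.7% of its 7642 annotated exonic bases in editing-deficient libraries and 41.6%, 42.3% and 44.4% in *Mavs*-/- libraries. The means were 53.0% ± 1.84 and 42.7% ± 1.44 (SD, n = 3 each, two-sided exact permutation test, *P* = 0.1), and the groups did not overlap. The coverage lay in many short peaks, 14, 17 and 17 against 10, 9 and 14, and in the longest protein-coding transcript 14, 17 and 17 of the 19 exons were touched in editing-deficient libraries and 10, 9 and 14 in the others. The exon counts overlapped at 14, in editing-deficient replicate 1 and *Mavs*-/- replicate 3. By the percentile rank of its strongest peak in its library, *Cpt1a* no longer separated the genotypes, whereas *Acadm* did.

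*Cpt2*, the inner-membrane partner of CPT1A, varied widely within each genotype, with 33.2%, 74.0% and 58.4% in editing-deficient and 49.1%, 54.6% and 29.3% in *Mavs*-/- libraries. *Acadm*, the medium-chain acyl-CoA dehydrogenase, had 19.8%, 16.3% and 27.1% against 10.6%, 22.7% and 5.09%. Both pairs of groups overlapped, so neither gene was called. *Hadha*, a subunit of the trifunctional protein, had 14.5%, 19.5% and 14.2% against 14.1%, 17.9% and 17.5%, and a difference of -0.397 percentage points. *Acaa1b*, the peroxisomal thiolase, had 51.2%, 88.4% and 45.0% against 65.7%, 75.9% and 48.5%, and its difference changed sign when single libraries were left out, from -15.3 to 6.44 points. These values show no separation of the genotypes for the 4 enzymes.

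*Fabp1* was covered over 72.0%, 65.5% and 69.6% of its exons in editing-deficient and 65.3%, 65.3% and 71.1% in *Mavs*-/- libraries. The values overlapped, and the same 3 of its 4 exons were covered in all 6 libraries, with no peak on the 3′ untranslated region in any. *Ppara* was covered over 49.7%, 55.0% and 54.6% against 55.1%, 33.2% and 43.1%, with *Mavs*-/- replicate 1 above all editing-deficient libraries. Neither gene was called.

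**Figure D1:**
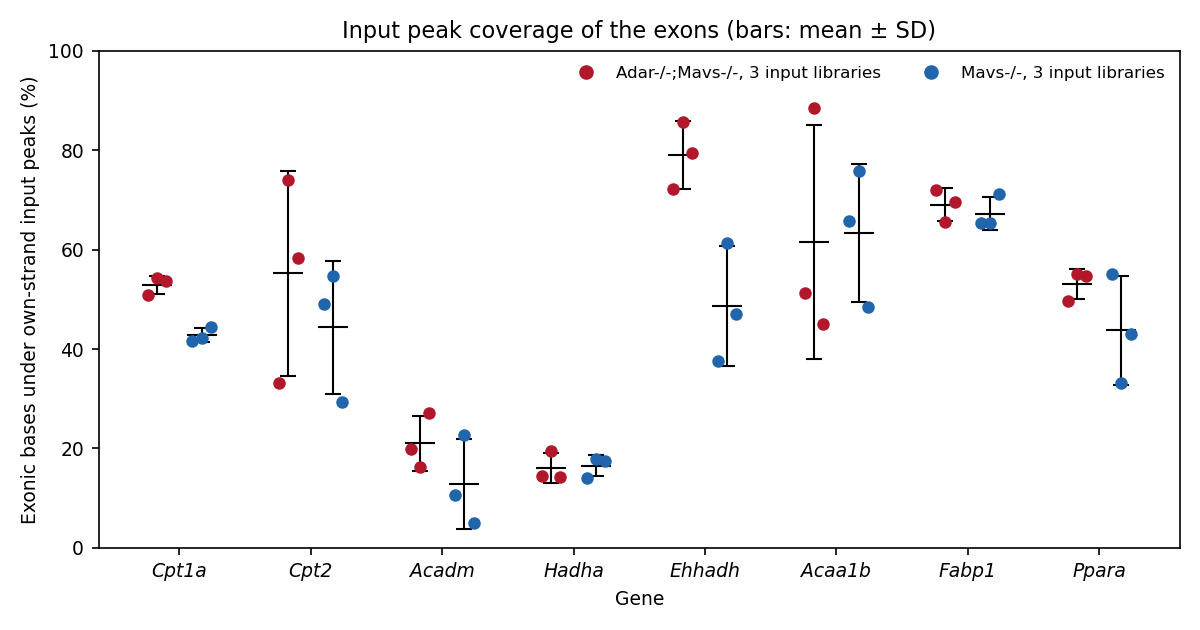
Share of each gene's exonic bases, in percent, under own-strand input peaks in each of the 6 input libraries (points), with the mean and SD of each genotype (bars). The red and blue points are apart for *Cpt1a* and *Ehhadh* and mixed for the other 6 genes.

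Many peak ends lay at exon ends, but exonic peaks could run into introns. Of 238 exonic input peaks of the 8 genes over the 6 libraries, 186 had at least 1 end within 5 bases of an annotated exon end, and 77 had both. For *Cpt1a* these numbers were 72 and 35 of 81 peaks, and for *Hadha* 39 and 16 of 40. Of the 238 peaks, 42 lay wholly within exons, and some of the others passed an exon end by a few bases only. A peak of *Acaa1b* in editing-deficient replicate 3 had 58 exonic bases of 581. The summed areas compared below count the whole peak. When each transcript was split at its midpoint, the downstream part was covered more than the upstream part in all 6 libraries for *Cpt1a*, *Acadm*, *Acaa1b* and *Ppara*. For *Fabp1* the upstream part was covered more in all 6, at 73.9 to 87.3% against 52.3 to 56.7%. For *Acadm* the shares were 0 to 27.0% upstream and 19.4 to 77.5% downstream. In *Hadha* the peaks covered 38.1 to 61.6% of the coding bases and 19.2 to 24.8% of the 3′ untranslated bases.

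**Figure D2:**
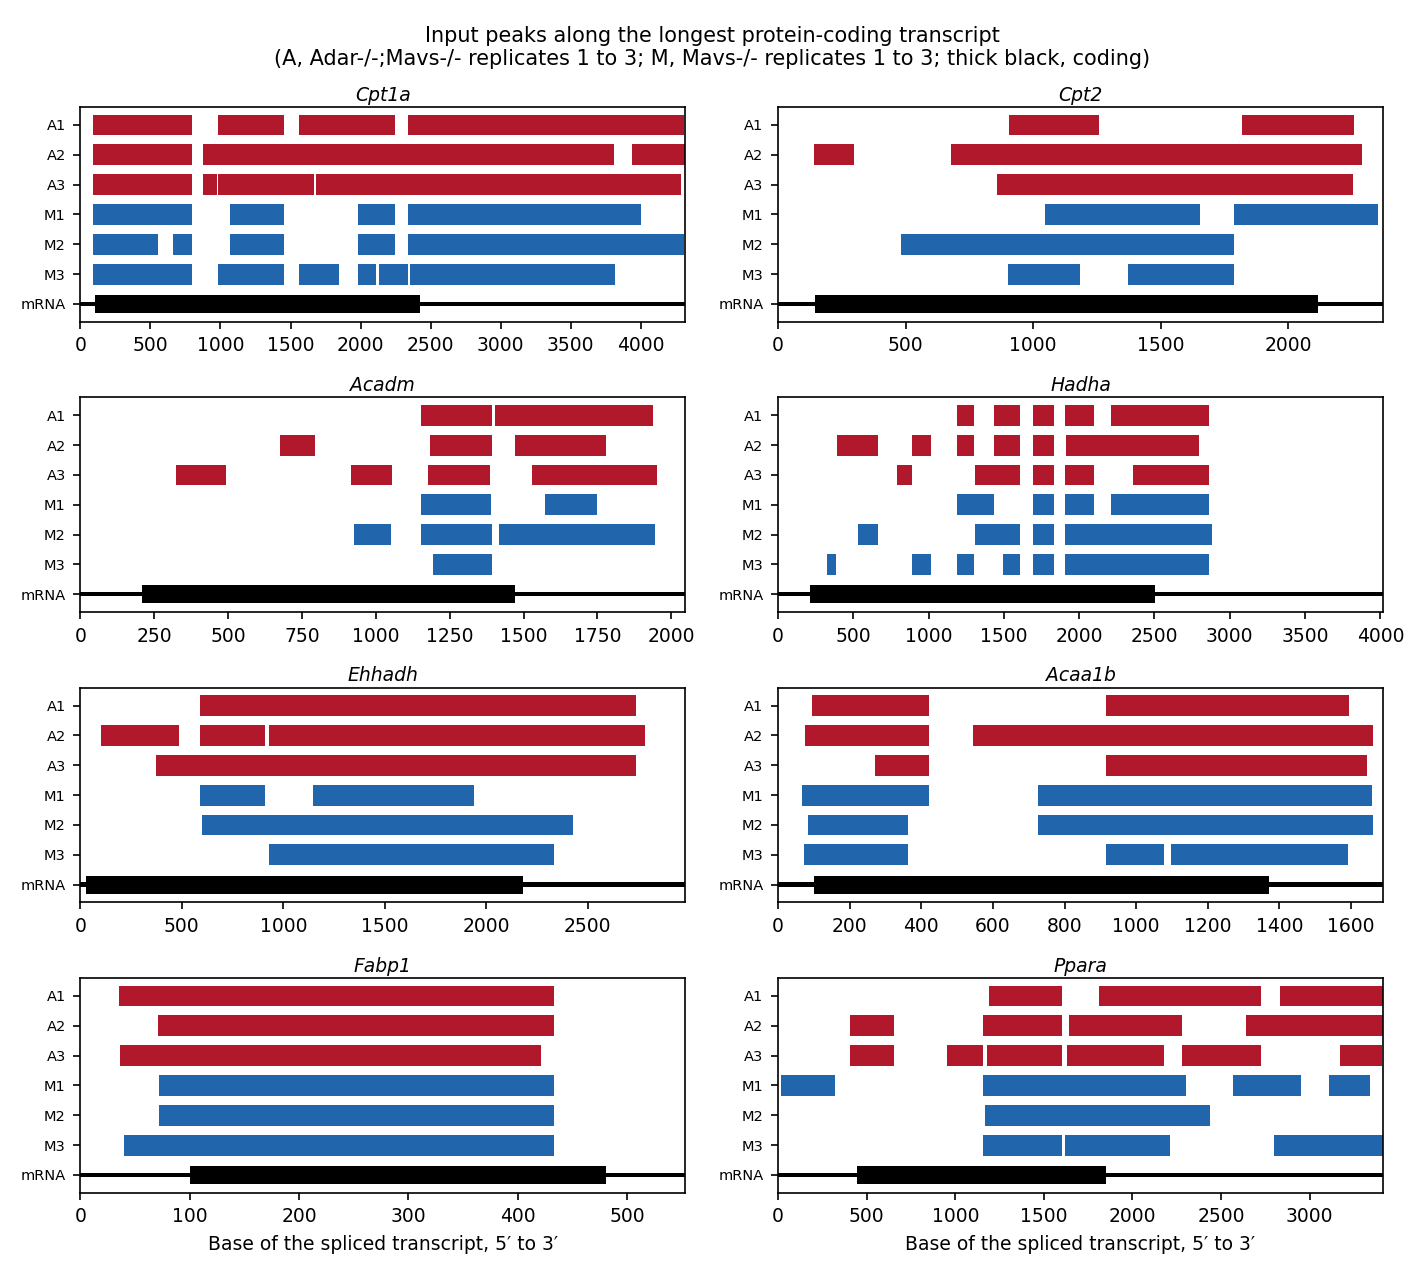
Bases under own-strand input peaks (coloured) along the spliced longest protein-coding transcript of each gene, from its 5′ end, in the 3 editing-deficient (red, A1 to A3) and 3 *Mavs*-/- (blue, M1 to M3) input libraries, over the coding part (thick black). The strips of *Ehhadh* are longer in all 3 editing-deficient libraries, and those of *Fabp1* end at the same exon in all 6.

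The summed area of a gene's exonic input peaks was then compared by limma over the 1319 genes with such peaks in all 6 libraries, after quantile normalisation of the log2 areas. All 8 genes passed this filter. *Ehhadh* was higher in the editing-deficient libraries by 1.20 on the log2 scale (2.29-fold, 95% confidence interval 0.72 to 1.68, limma adjusted *P* = 0.0183), with all 3 editing-deficient libraries above all 3 others, and was the only 1 of the 8 called. Over all genes 100 (7.58%) were called higher and 121 (9.17%) lower, and 464 had an unadjusted *P* under 0.05. The call of *Ehhadh* was lost without editing-deficient replicate 3, without *Mavs*-/- replicate 1 and without *Mavs*-/- replicate 2, where adjusted *P* was 0.0528, 0.0544 and 0.0509 and the difference 1.15, 1.17 and 1.15.

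For *Ehhadh* the normalised log2 area per exonic kilobase was 10.97, 11.65 and 11.57 in editing-deficient and 10.20, 10.23 and 10.16 in *Mavs*-/- libraries. The *Mavs*-/- values lay within 0.07 of each other, and the lowest editing-deficient value was above them all. For *Cpt1a* the values were 10.96, 11.46 and 11.38 against 10.92, 10.70 and 11.06, a difference of 0.38 (95% confidence interval -0.01 to 0.77, limma adjusted *P* = 0.153). Here editing-deficient replicate 1 lay below *Mavs*-/- replicate 3, so the groups overlapped.

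*Fabp1* and *Hadha* stood on the other side of 0 without passing the threshold. *Fabp1* had 12.40, 12.33 and 12.12 against 12.69, 12.87 and 12.68, a difference of -0.46 (95% confidence interval -0.89 to -0.03, limma adjusted *P* = 0.123), and its groups did not overlap. *Hadha* had 9.15, 9.62 and 9.19 against 9.54, 9.90 and 9.83, a difference of -0.44 (95% confidence interval -0.86 to -0.01, limma adjusted *P* = 0.133), and its groups overlapped. When only peaks with an area of at least 1000 were kept, *Hadha* was called lower, at -0.73 (limma adjusted *P* = 0.0343, over 614 genes).

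For *Ppara* the values were 9.31, 10.14 and 9.87 against 10.60, 9.45 and 11.19, and the difference of -0.64 had a 95% confidence interval of -1.67 to 0.40. The highest value, in *Mavs*-/- replicate 3, rested on 1 peak of 3312 bases (chr15:85802208-85805519) that ran past the annotated end of the gene, with 612 bases in its exons and an area of 6567. Counting area in proportion to exonic bases, a setting chosen after the data were seen, brought the difference to -0.08. *Cpt2*, *Acadm* and *Acaa1b* differed by -0.39, 0.53 and -0.24, with 95% confidence intervals of -1.54 to 0.76, -0.45 to 1.51 and -1.06 to 0.57. All 3 intervals include 0 and reach past 0.5 on at least 1 side, so differences of that size remain possible for these genes.

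By level per exonic kilobase, the 8 genes spanned from *Fabp1*, at 12.12 to 12.87 on the log2 scale and rank 178 of 1319 genes, to *Acadm*, at 7.84 to 9.48 and rank 1033. *Fabp1* lay above the other 7 genes in every library. Below it the order of means was *Acaa1b* (11.26), *Cpt1a* (11.08), *Ehhadh* (10.80), *Ppara* (10.09), *Cpt2* (9.66), *Hadha* (9.54) and *Acadm* (8.95), and the ranges of neighbours in this order overlapped. The area grows with depth and significance and is not a count of molecules. The exonic kilobases are those of all annotated transcripts of a gene together. They came to 8730 bases for *Hadha* and 3913 for *Acadm*, against 4017 and 2047 in the longest protein-coding transcript. For *Cpt2* the lengths were 2391 and 2372. The levels and their order thus depend on the gene model and were not recomputed by transcript length. The genes nearest in their 6 values, by Euclidean distance among 1318 others, were *Acaa2* (0.191) and *Actb* (0.378) for *Fabp1*, *Ssr2* (0.362) and *Bhmt2* (0.446) for *Hadha*, *Tmbim6* (0.419) and *Slc25a39* (0.492) for *Cpt1a*, and *Gm12966* (0.734) and *Gm8172* (0.736) for *Ehhadh*. For *Acadm* they were *Mlycd* (0.888) and *Chchd2* (1.04), for *Acaa1b* *Abhd2* (0.974) and *Pgrmc1* (0.986), and for *Cpt2* *Mpst* (1.13) and *Slc25a11* (1.15), all farther off, while *Nipsnap1* lay at 1.17 from *Ppara*.

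The wider list held 49 other genes of the pathway, of which 41 had an exonic input peak and 27 had one in all 6 libraries. By coverage 13 of the 41 were higher in all 3 editing-deficient libraries and 2 were lower, where all genes gave 16.5% and 3.01%. With equal numbers of peaks all genes gave 10.7% and 6.71%, and the 41 were not recounted. By limma 3 of the 27 were called higher and 0 lower, where all genes gave 7.58% and 9.17%, with 10 at an unadjusted *P* under 0.05, and their median difference was -0.02 on the log2 scale against -0.03 over all genes. Among those called were *Cyp4a14*, a fatty acid ω-hydroxylase (1.53, limma adjusted *P* = 0.0106), and *Plin2*, a lipid droplet coat protein (1.12, limma adjusted *P* = 0.0106).

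Among genes known as targets of PPARα, 5 of 9 besides *Fabp1* were higher by coverage, beside 16.5% of all genes with an input peak. They were *Cyp4a10*, *Cyp4a14*, *Angptl4*, *Plin2* and *Pdk4*, and 2 of the 9 had no input peak. The 9 genes were not recounted with equal numbers of peaks, where all genes gave 10.7%. *Pdk4*, the kinase that shuts pyruvate dehydrogenase, was covered over 36.0%, 43.7% and 33.1% in editing-deficient libraries and had no input peak in any *Mavs*-/- library. *Angptl4*, a lipoprotein lipase inhibitor, had 40.8%, 38.6% and 44.7% and likewise no peak in the others. *Cyp4a10* had 74.2%, 78.0% and 88.1% against 0%, 0% and 19.9%, and 388 of its 2035 windows of 75 bases were shared with another gene. *Fabp1*, from the same group, was not called by either measure.

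Others higher by coverage included the fatty acid transporters *Slc27a2* (84.7% against 68.2% on average) and *Slc27a5* (85.4% against 77.5%). The β-oxidation enzymes *Acadl* (52.1% against 27.9%) and *Eci2* (17.5% against 2.13%) and the peroxisomal reductase *Decr2* (53.2% against 24.2%) were higher too. So were the regulators *Rxra* (72.9% against 54.3%) and *Creb3l3* (47.3% against 38.3%). The 2 lower genes were *Crot* (16.3% against 44.0%) and *Acat1* (33.1% against 44.1%). *Crot* moves chain-shortened acyl groups out of peroxisomes, and *Acat1* is the thiolase that starts ketone body synthesis. In editing-deficient replicates 1, 2 and 3 *Crot* had 21.3%, 27.7% and 0%, and *Acat1* 38.0%, 40.5% and 20.8%. Replicate 3 was thus the lowest for both. All 5 ketogenesis genes had peaks in all 6 libraries, and 0 were higher and 1 lower by coverage. The lowest limma difference among them was -1.32, for the ketone body transporter *Slc16a1*, and 0 of the 5 were called (limma adjusted *P* = 0.0639 for *Acat1* and 0.0748 for *Slc16a1*). No peak of the input was found on *Cpt1b*, *Cd36*, *Acot8*, *Cyp4a12a*, *Fgf21*, *Ppargc1a*, *Esrra* and *Ppard*.

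**Figure D3:**
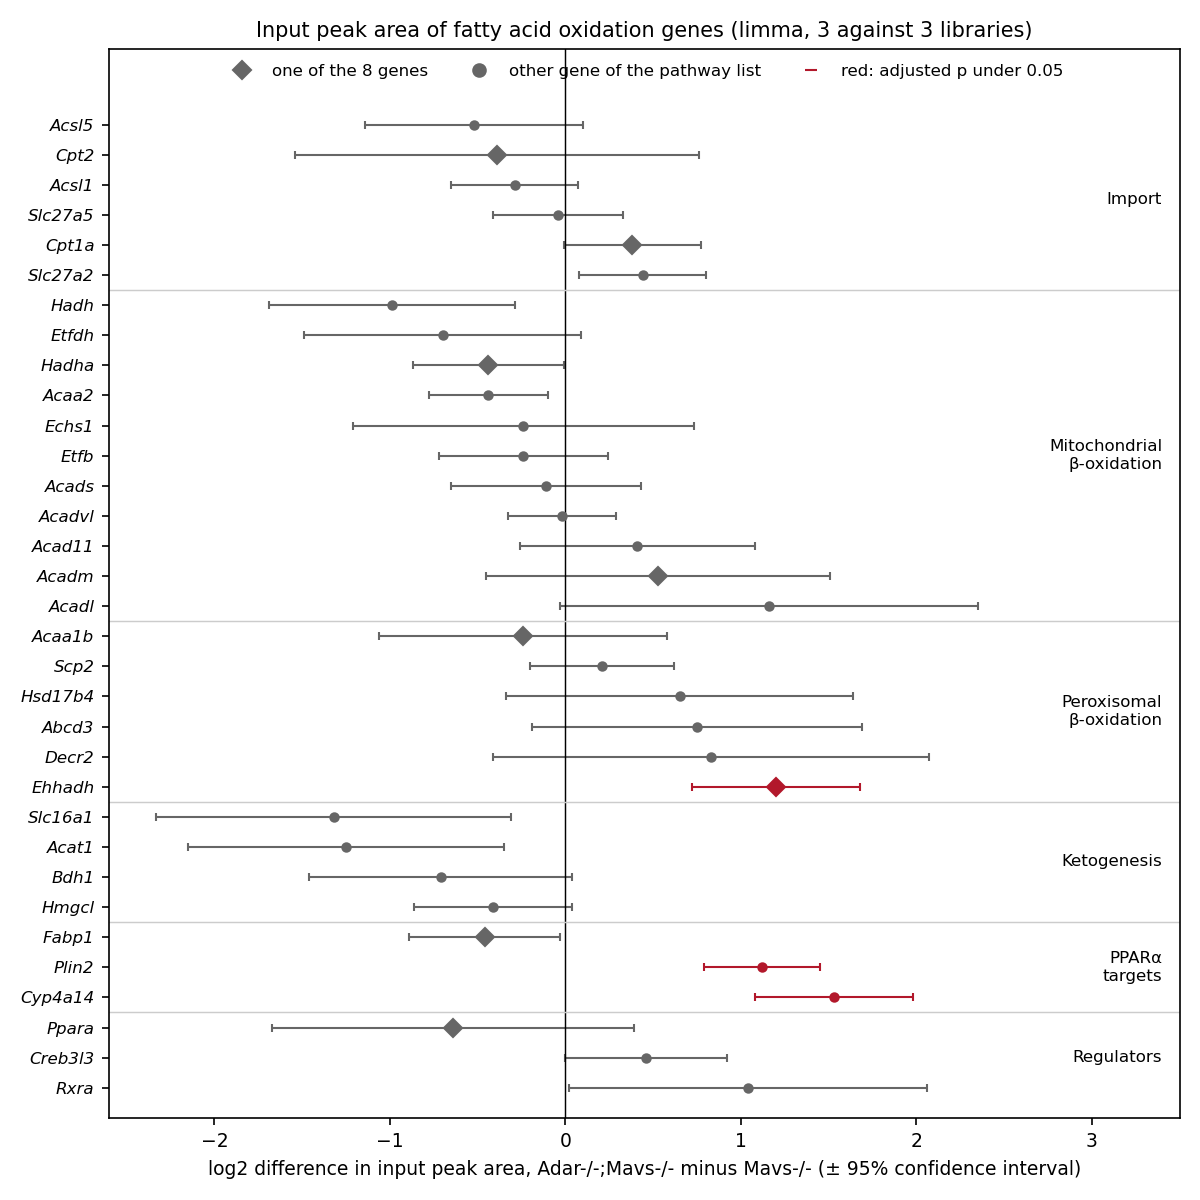
Difference in log2 input peak area, editing-deficient minus *Mavs*-/-, with its 95% confidence interval, for genes of the pathway with peaks in all 6 input libraries, ordered by role and by difference. Diamonds are the 8 genes and red marks adjusted *P* under 0.05, which *Ehhadh*, *Plin2* and *Cyp4a14* reached.

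Intronic input peaks on the strand of the gene appeared in 4 of the 8 genes and in the editing-deficient libraries, 1, 6 and 2 peaks in replicates 1, 2 and 3, against 0 in each *Mavs*-/- library. *Cpt1a* held 4 of the 9, *Ppara* 3, and *Acaa1b* and *Ehhadh* 1 each, with areas of 506 to 660, near the smallest area listed. No 2 of them lay at the same site. Over all genes, intronic peaks made up 2.84 to 3.15% of the peaks in editing-deficient and 1.46 to 2.75% in *Mavs*-/- input libraries, and the part of the library in the counts of the 4 genes was not tested.

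Own-strand peaks on the exons of the 8 genes were few in the digested libraries. No MDA5-protected peak lay on an exon of any of the 8 on its own strand, in any of the 6 libraries. Peaks of digested libraries were called against the input of the same genotype, in which these exons are well covered, and the part of that control in the absence was not tested. Among 2405 genes with an exonic input peak in at least 4 of 6 libraries, 1.41% in editing-deficient and 1.37% in *Mavs*-/- mice had such a peak in at least 2 of 3 libraries, so 0 of 8 was close to the background. RNase-only peaks on exons were found for *Acadm* alone, at the 3′ end of its last exon, in editing-deficient replicate 2 (241 bases, area 648) and *Mavs*-/- replicate 1 (274 bases, area 873). With 1 library in each genotype, 0 of 8 genes reached 2 of 3, where the background was 11.4% and 8.98%. Within the spliced transcripts, blastn found no inverted repeat of at least 70 bases at 70% identity or more, and the longest was 40 bases, in *Ppara*.

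The introns of *Ppara* were the place where protected RNA recurred. Own-strand RNase-only peaks lay in its introns in all 6 RNase-only libraries, covering 654, 598 and 701 bases in editing-deficient and 702, 417 and 608 in *Mavs*-/- libraries, and the groups overlapped. It was the only 1 of the 8 genes with such peaks in at least 2 of 3 libraries, in both genotypes, against a background of 5.82% and 3.45% of genes. Antisense RNase-only peaks were also called for *Ppara* alone in both genotypes, where the background was 4.7% and 3.08%. No other annotated gene overlaps these sites.

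The peaks fell at 4 sites, and the strongest lay in intron 3 about 50 kb downstream of the start of the gene, at chr15:85785291-85785819. There own-strand RNase-only areas were 6207, 4440 and 1403 in editing-deficient and 3014, 1211 and 2215 in *Mavs*-/- libraries. The opposite strand gave areas of 6697, 6110 and 1365 against 3544, 1018 and 1905, so every library had both strands and the genotypes overlapped on each. MDA5-protected peaks at this site were found on the strand of the gene in editing-deficient replicates 1 and 2 (areas 1490 and 1254) and in no *Mavs*-/- library. On the opposite strand they were found in these 2 libraries (1892 and 2039) and in *Mavs*-/- replicate 1 (693). Peaks of opposite strands overlapped within a library in 8 of the 12 digested libraries, over 131 to 474 bases. An input peak was present there in 1 library, editing-deficient replicate 3, on the opposite strand.

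A site in intron 2, chr15:85738066-85738265, showed both strands in RNase-only libraries and the opposite strand only in MDA5-protected libraries. Own-strand RNase-only areas were 1403, 1031 and 719 in editing-deficient libraries, 856 and 556 in *Mavs*-/- replicates 1 and 3, and none in replicate 2. The opposite strand was MDA5-protected in all 3 editing-deficient libraries (1176, 651 and 751) and in *Mavs*-/- replicate 1 (566). A further site of intron 2, chr15:85757076-85757261, carried own-strand peaks only, in RNase-only libraries of editing-deficient replicate 3 and *Mavs*-/- replicates 1 and 2 and in MDA5-protected libraries of editing-deficient replicate 3 (942) and *Mavs*-/- replicate 1 (952). The remaining site, chr15:85756148-85756304, also in intron 2, was seen in editing-deficient replicate 3 alone, with areas of 793 without and 946 with MDA5. Over all genes, RNase-only peaks overlapped on both strands in at least 2 of 3 libraries for 2.29% of genes in editing-deficient and 1.37% in *Mavs*-/- mice, and MDA5-protected peaks for 0.873% and 0.707%. *Ppara* was the only 1 of the 8 so found, in both genotypes for RNase-only and in editing-deficient mice for MDA5-protected peaks.

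**Figure D4:**
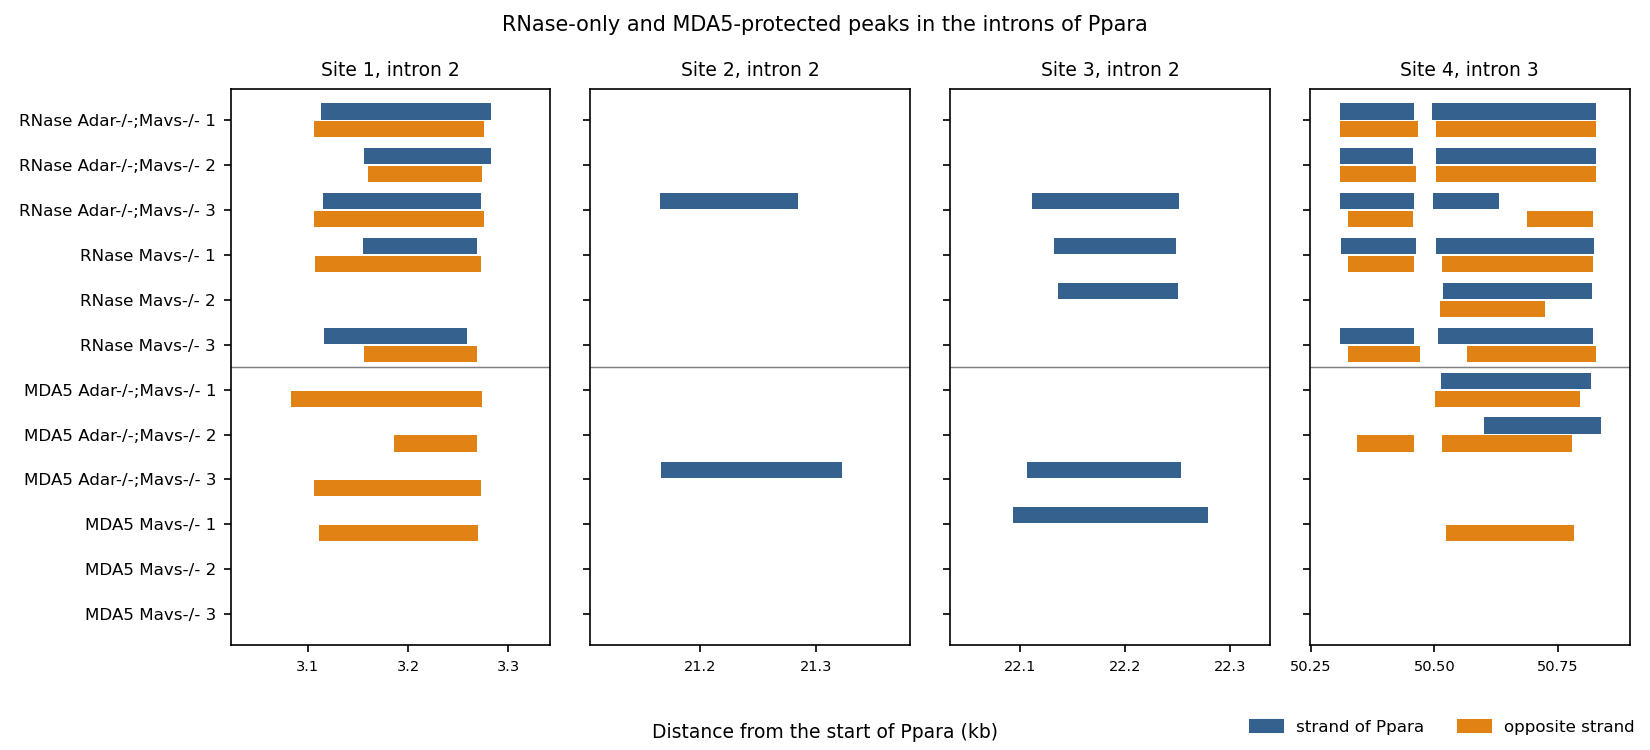
RNase-only (above the line) and MDA5-protected (below) peaks at the 4 intronic sites of *Ppara*, by distance from the start of the gene in kb, in each of the 12 digested libraries, on the strand of the gene (blue) and the opposite strand (orange). At site 4, the site in intron 3, both strands are filled in all 6 RNase-only libraries, and *Mavs*-/- replicates 2 and 3 hold no MDA5-protected peak at any site.

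MDA5-protected peaks on the strand of the gene lay in introns only, 2, 3 and 3 in editing-deficient and 1, 0 and 0 in *Mavs*-/- libraries. In at least 2 of 3 libraries they were found for *Ppara* and *Cpt1a* in editing-deficient mice (background 5.2%) and for 0 of 8 genes in *Mavs*-/- mice (background 2.04%). For *Ppara* they covered 304, 237 and 303 bases against 186, 0 and 0, and the groups did not overlap, as for 152 of 1706 genes (8.91%) with such a peak. These sums pool different sites. Editing-deficient replicates 1 and 2 had their own-strand peaks in intron 3, and replicate 3 had its own in intron 2. No own-strand site held an MDA5-protected peak in all 3 editing-deficient libraries. Covered bases were lower for 1.41% of genes and for 0 of the 4 genes of the set that had such a peak. For RNase-only peaks the groups did not overlap for 3.91% of genes upward and 0.882% downward, and for 0 of the 3 genes that had one. The editing-deficient MDA5-protected libraries held more peaks in 2 of 3 replicates, and the part of peak number in this difference was not tested. Antisense MDA5-protected peaks in at least 2 of 3 libraries were found for *Ppara* in editing-deficient mice (background 1.91%) and for no gene of the set in *Mavs*-/- mice (background 1.79%).

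The peaks of *Cpt1a* were 2 single events, both in intron 1. They lay at chr19:3331426-3331553 in editing-deficient replicate 2 (area 652) and at chr19:3327593-3327787 in replicate 3 (area 659), several kb apart. *Cpt2* held 1 MDA5-protected peak in intron 1, in editing-deficient replicate 1 (chr4:107921478-107921617, area 536). *Ehhadh* held 1 in intron 5 in editing-deficient replicate 2, where the RNase-only library of the same number had a peak too (areas 762 and 708, chr16:21769188-21769374). None of these sites had a peak in a *Mavs*-/- library or in another editing-deficient MDA5-protected library.

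Antisense peaks outside *Ppara* were few. *Acaa1b* had a short one in the intron next to exon 2, chr9:119156683-119156747, in the RNase-only (area 2060) and MDA5-protected (862) libraries of editing-deficient replicate 1 and the MDA5-protected library of *Mavs*-/- replicate 3 (919), over 43 to 65 bases, of which 2 were exonic in the last. The longest of these peaks overlapped the *Acaa1b* stretch printed above by those 2 bases. *Fabp1* had an antisense RNase-only peak of 84 bases in intron 2 in editing-deficient replicate 1 (area 517). *Hadha* had no peak of either strand in any digested library.

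Among the other 49 pathway genes, own-strand intronic MDA5-protected peaks in at least 2 of 3 libraries were found in editing-deficient mice for genes that included the activating and transport enzymes *Acsl5* and *Slc27a2*, the β-oxidation genes *Eci2*, *Scp2* and *Crot*, the thiolase *Acat1* and the droplet protein *Plin2*, and in *Mavs*-/- mice for *Crot*. Counting *Cpt1a* and *Ppara*, 10 of the 57 pathway genes had them in editing-deficient and 1 in *Mavs*-/- mice, beside the 5.2% and 2.04% of the 2405 genes with input peaks. The 10 became 3 with areas of at least 1000, 5 with equal numbers of peaks and 3 when all 3 libraries were required. Over the 2405 genes the share under these settings was 1.41%, 2.54% and 2.2%. The genes with peaks in all 3 libraries were *Ppara*, *Eci2* and *Scp2*, counted by gene and not by site. *Rxra*, the partner receptor of PPARα, was the only 1 with exonic MDA5-protected peaks, in at least 2 of 3 libraries of both genotypes.

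To separate protection by MDA5 from resistance to RNase, the RNase-only peaks joined between replicates of a genotype were subtracted base by base from its MDA5-protected peaks. Before subtraction *Ppara* was the only 1 of the 8 genes with MDA5-protected peaks of different editing-deficient replicates within 200 bp of each other, against 6.15% of genes, and 0 of 8 were found in *Mavs*-/- mice (3.28%). After it, 0 of the 8 genes held such a peak in either genotype, against 4.28% and 2.25% of genes. For *Ppara* the recurrent MDA5-protected bases thus fell within RNase-only peaks, apart from pieces under 10 bp.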

How the data were processed

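Peak lists of 18 libraries, 1 each, were analysed as deposited. The authors used Trim Galore 0.6.6 for trimming and, after alignment to GRCm38, Genrich 0.6.1 for calling peaks library by library with the strands kept apart, taking input of the same genotype as the control of digested libraries. The area of each peak is a score the authors' caller deposited, at least 500 in every list. Raw and adjusted significance were deposited as −log10 values of *P*. Depth is unknown, since no counts are listed, so area rises with depth and no interval for counting error exists.

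Samples were grouped by their labels. Peaks were intersected with GENCODE M21 exons by strand (bedtools 2.31.1). Coverage was compared by exact permutation tests and summed log2 areas by limma 3.58.1 (R 4.3.3), quantile-normalised, with Benjamini-Hochberg adjustment over 1319 genes. Scripts were tested on simulated data. RNase-only and MDA5-protected peaks were joined within 200 bp and pieces under 10 bp removed. Sequences came from GENCODE transcripts and RefSeq promoters. No genome sequence was used here, so intronic peaks have no printed sequence.

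The members and lists were chosen with earlier results of these data known. All 8 genes were named throughout, other pathway genes where called, and for each gene its 2 nearest genes. Pathway genes with recurrent MDA5-protected peaks were named by the same rule. Alternatives changed strand, area minimum, number of peaks, gene model, normalisation, filter, replicate block, support, subtraction and left-out libraries, and 1, by exonic share of area, was added after seeing the data. Some genes that these rules would name are not reported here.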

Additional observations from a re-analysis of the deposited data

How the results depend on the processing

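Depth was not known, so an absent peak cannot be told from a weak one. The count of 2 genes higher by input coverage was 2 or 3 when single libraries were left out and under the other alternatives, with 0 lower throughout. The gene added was *Cpt2* without editing-deficient replicate 1 and *Ppara*, *Acadm* or *Fabp1* without *Mavs*-/- replicate 1, 2 or 3. By limma, the genes called higher and lower in editing-deficient mice were 100 and 121. They were 199 and 222 with genes seen in at least 3 of 6 libraries, 58 and 76 with areas of at least 1000, where *Hadha* was 1 gene of the 8 called lower, and 59 and 86 by the strongest peak. Leaving out single libraries gave 32 to 89 and 23 to 122, and 0 to 1 of the 8 genes called higher, with none lower. The cause of these shifts was not tested, except that filters changed the genes tested. With areas of at least 1000 *Cpt2* and *Acadm* could not be fitted. Exonic area gave *Fabp1* -0.93. The number of genes with intronic MDA5-protected peaks in editing-deficient mice fell from 2 to 1 (*Ppara*) with areas of at least 1000, equal numbers of peaks or all 3 libraries, and was 1 to 2 with single libraries left out. Same-numbered input libraries of the genotypes did not deviate together (r = 0.107, -0.03 and 0.033), and the main fit left them unpaired. Whether the numbers link libraries in another way was not tested. With the replicate block 107 and 109 genes were called, and 1 of the 8, at a log2 difference of 1.20.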
